A study of Sus scrofa with 6 samples.

Results

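Extracellular matrix and perineuronal net genes were examined in prefrontal cortex RNA from pigs exposed to valproic acid (VPA) before birth. The members were chosen by role, with earlier results of these data known, so shares of members set beside all genes are not independent support. The roles were lecticans, link proteins, tenascins, hyaluronan synthases and a hyaluronan receptor, matrix proteases and their inhibitors, collagens, laminins and other basement membrane proteins. Of 47 names, 44 were found by gene symbol among the 17201 genes of the deposited tables, and HAS2, COL6A1 and COL6A2 were not analysed here. The 3 VPA animals (numbers 391, 392 and 393) had been exposed during early gestation at 75 mg/kg, and the 3 control animals (401, 402 and 408) are labelled as untreated. All were Sus scrofa aged 3 months, and the comparison between the groups is the one the design implies. VPA, a drug against epilepsy, blocks histone deacetylases, and animals exposed to it before birth serve as models of autism. The sources used here name no strain, sex, litter or vehicle. The p-values set the group difference against the spread between these animals, which may or may not come from separate litters. If any are litter mates, the 3 animals of a group are fewer than 3 independent exposures.

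The matrix of the brain is built on hyaluronan, a long sugar polymer. Lecticans, which are chondroitin sulfate proteoglycans, bind hyaluronan through one end, link proteins lock that bond, and tenascin-R cross-links the other ends. Where this lattice condenses around the cell bodies of parvalbumin interneurons and some other neurons it is called a perineuronal net, and it forms late in postnatal development, when windows of plasticity close. A second matrix, the basement membrane of collagen IV, laminins, nidogens and perlecan, wraps blood vessels, and fibrillar collagens lie in the meninges and vessel walls. Proteases of the ADAMTS and MMP families cut these proteins, and TIMPs inhibit the proteases.

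Total counts ran from 16285517 to 17989032 per library, so 1 CPM, a count scaled to the library total, stood for 16.3 to 18.0 reads. Neuronal markers checked the tissue label: all 8 were detected, with a summed level of 6880 to 7062 CPM in VPA and 7442 to 7639 CPM in control libraries. Markers of striatal projection neurons, which lie beneath the cortex, stood higher in all VPA libraries and highest in VPA 393. They summed to 560 CPM in VPA 393, to 173 and 196 CPM in the other VPA libraries and to 138 to 157 CPM in controls. All 8 tested had positive fold changes, and none was at 0. At an unadjusted p under 0.05, 7 were higher (87.5%, where 8.69% of all genes were). Relative to the mean of the controls, the list median was 0.64, 0.71 and 1.90 on the log2 scale in VPA 391, 392 and 393 and -0.08 to 0.12 in controls, so leaving out VPA 393 does not remove this difference between the groups. Its part in the matrix values was not tested. EIF1AY, a Y-linked gene, had 26.7 to 30.5 CPM in 4 libraries and at most 0.111 CPM in VPA 392 and control 401, 1 library of each group.

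Per gene length, the members spanned a wide range of levels. SPARC, a secreted glycoprotein of astrocytes and vessels, was the highest at a mean of 692 FPKM, a count scaled to gene length and library total, over the 6 libraries, which placed it at rank 33 of 17201 genes. TIMP2 followed at 155 FPKM, HAPLN4 at 112 FPKM and NCAN at 98.2 FPKM. Of the 44 members, 3 had a mean above 100 FPKM, 13 lay between 10 and 100, 22 between 1 and 10, and 6 below 1 FPKM. Those 6 were ACAN, HAPLN3, HAS3, CD44, ADAMTS5 and MMP9. Among lecticans the order ran from NCAN to ACAN, the gene of aggrecan, the lectican that marks mature nets, at 0.660 FPKM. Together the members took 0.486 to 0.516% of all counts in VPA libraries and 0.467 to 0.490% in controls, so the shares of the 2 groups overlapped.

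**Figure D1:**
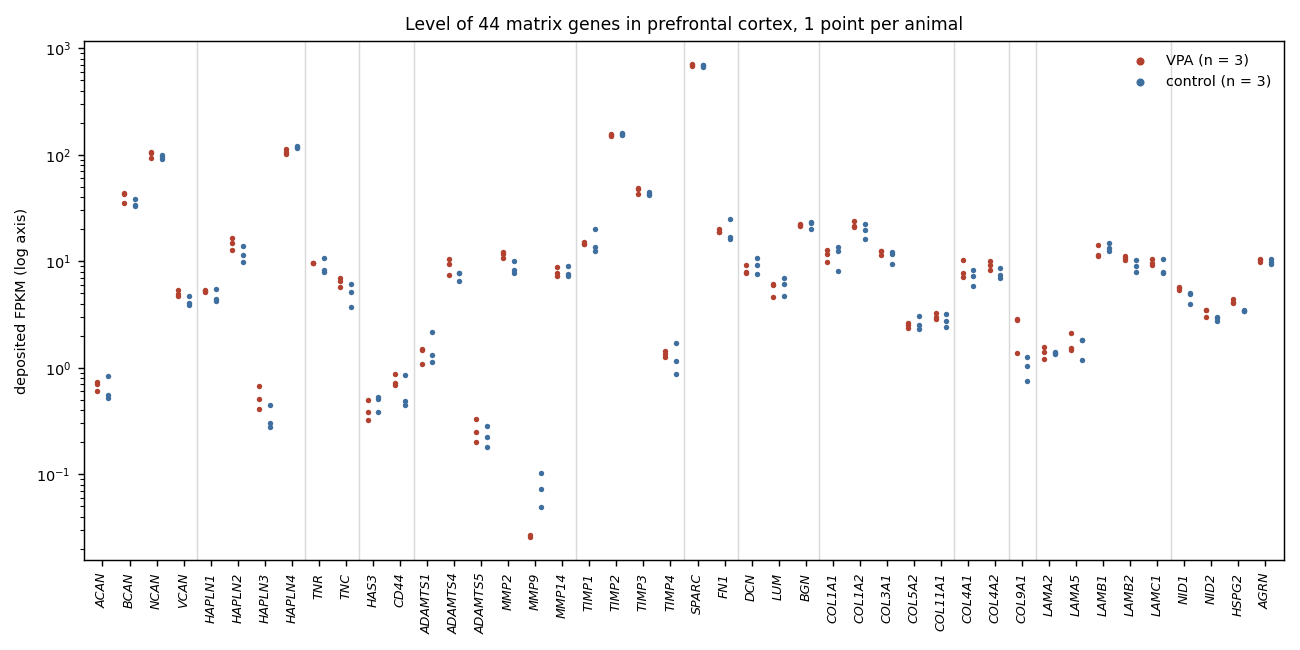
Deposited FPKM of each of the 44 members (log axis), with VPA animals left and control animals right of each tick, 1 point per animal and vertical lines between roles. Levels span SPARC at 692 FPKM to MMP9 at 0.0463 FPKM, and for most members the groups interleave; the value of 0 for MMP9 in VPA 393 cannot be drawn on a log axis.

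No member passed the test across all genes. In edgeR's quasi-likelihood test with Benjamini-Hochberg adjustment, 0 of 43 tested members had an adjusted p under 0.05, where 52 of 14373 genes did (0.362%). The lowest adjusted p of a member was 0.0787, for HSPG2, and 2 members, HSPG2 and COL9A1, were under 0.1, where 2.39% of all genes were. At an unadjusted p under 0.05 there were 12 members (27.9%), where 16.2% of all tested genes lay under that p. Of the 12, 11 were higher in VPA (25.6% of members, where 8.69% of all genes were) and 1 was lower (2.33%, where 7.47% were). DESeq2 called 3 members, COL9A1, MMP2 and HSPG2. They were 7.32% of the members it adjusted, where it called 3.64% of all genes it adjusted.

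The direction was mostly upward and small. Of the 43 tested members, 30 had a positive log2 fold change (69.8%), where 50.5% of all tested genes did, and the median was 0.10 against 0.0018 over all genes. For 35 members the size of the change was under 0.25 on the log2 scale. Groups did not overlap in 6 tested members with VPA higher (14.0%) and in 1 with VPA lower (2.33%), where 12.1% and 9.07% of all tested genes had such groups, so the first of these shares was close to that of all genes. Without VPA 393 the median was 0.14, 12 members had an unadjusted p under 0.05 (27.9%, where 15.8% of all genes did) and 0 passed after adjustment. Without VPA 392 the count at an unadjusted p under 0.05 was 4 of 43 (9.30%), where 11.9% of all genes lay under it.

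**Figure D2:**
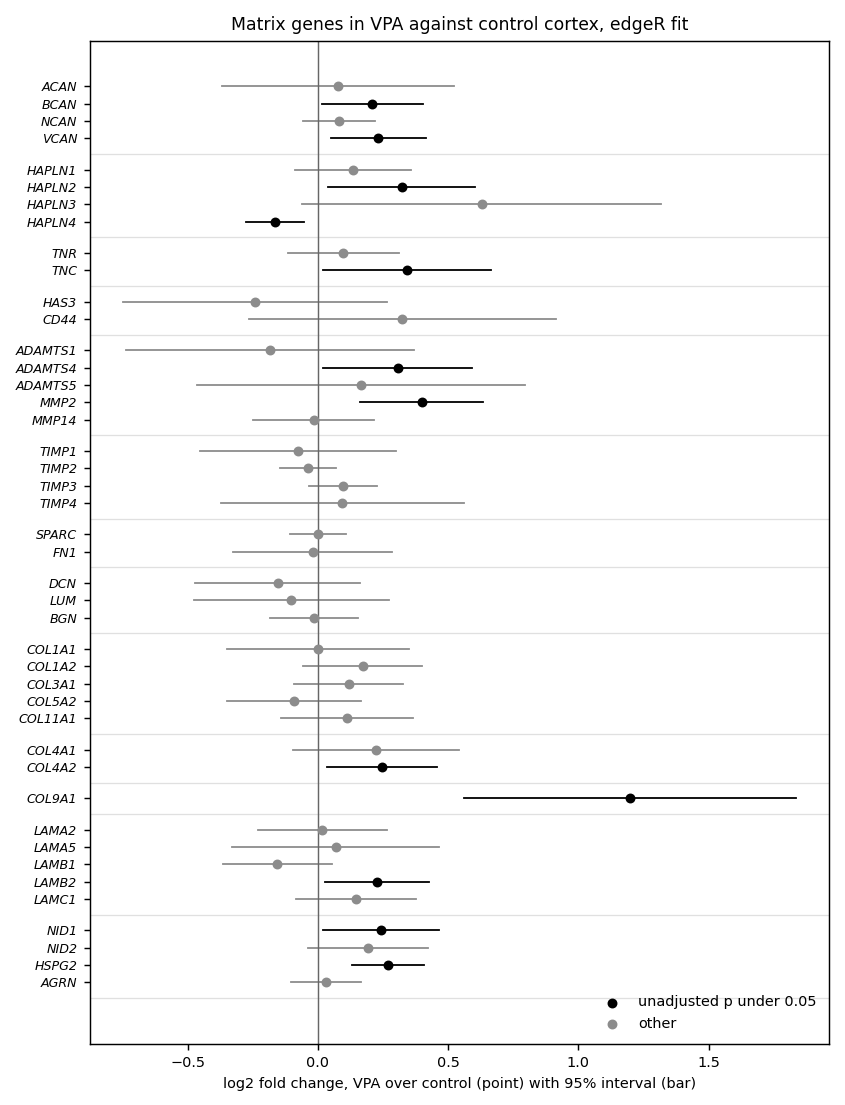
Log2 fold change of VPA over control for the 43 tested members (points) with 95% intervals (bars) from the edgeR fit, grouped by role from top to bottom. The 12 black members have an unadjusted p under 0.05; 11 of them lie right of 0, HAPLN4 lies left of it, and COL9A1 at 1.20 lies farthest from 0.

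Among lecticans, all 4 had positive fold changes and none passed after adjustment. VCAN, which encodes versican, a lectican of oligodendrocyte lineage cells, astrocytes and the developing matrix, had 62.2, 67.4 and 60.4 CPM in VPA 391, 392 and 393, against 59.6, 48.9 and 51.8 CPM in controls 401, 402 and 408. Every VPA animal lay above every control, with VPA 393 and control 401 less than 1 CPM apart (log2 fold change 0.23 ± 0.083 SE, unadjusted p = 0.018, adjusted p = 0.20). BCAN, the gene of brevican, an astrocyte-made lectican found around synapses, had 289, 294 and 236 CPM in VPA and 257, 225 and 221 CPM in control animals. VPA 391 and 392 were the highest, but VPA 393 lay among the controls (0.21 ± 0.088, adjusted p = 0.28; 0.15 to 0.31 with 1 library left out). NCAN, which encodes neurocan, averaged 658 ± 44.1 CPM in VPA and 617 ± 31.5 CPM in controls (SD, n = 3 each), with overlapping groups (95% interval of the log2 fold change -0.06 to 0.22). ACAN, the aggrecan gene, averaged 6.43 ± 0.649 and 6.04 ± 1.67 CPM in VPA and control animals, and its interval of -0.37 to 0.52 leaves room for a change of either sign. ACAN rested on 83 to 143 reads per library.

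Neurocan transcript made up most of the lectican pool. NCAN held 68.1 to 69.8% of the summed lectican FPKM in VPA and 69.6 to 71.5% in control animals. BCAN held 26.2 to 28.3% and 24.9 to 26.6%, VCAN 3.22 to 3.55% and 3.00 to 3.27%, and ACAN 0.452 to 0.474% and 0.406 to 0.585%, each pair in VPA and then control animals. In all 4 the groups overlapped.

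The link proteins did not share one direction. HAPLN4, a neuronal link protein that stabilises brevican around synapses on the cell body, had 368, 383 and 412 CPM in VPA animals and 424, 432 and 438 CPM in controls. Every VPA animal lay below every control, in contrast to most other members (log2 fold change -0.17 ± 0.050, unadjusted p = 0.0078, adjusted p = 0.15; DESeq2 adjusted p = 0.063, the lowest of its 17 alternatives, which reached 0.34). HAPLN4 was the 1 member of the 12 with a lower level in VPA, and its level was 0.892 times that of controls. HAPLN2, a link protein made by oligodendrocytes and placed at nodes of Ranvier, had 34.0, 44.3 and 39.7 CPM in VPA, against 30.6, 26.2 and 36.7 CPM in controls. Only VPA 391 lay within the control range (0.32 ± 0.13, adjusted p = 0.25; 0.21 without control 402 and 0.46 without control 408). HAPLN1, the cartilage link protein that also locks aggrecan in nets, averaged 29.3 ± 0.551 CPM in VPA and 26.4 ± 3.81 CPM in controls (0.13 ± 0.10, adjusted p = 0.55). HAPLN3 rested on low counts, with 30 to 48 reads in VPA and 21 to 35 in control libraries (0.63 ± 0.31, adjusted p = 0.35).

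Per length, the shares of HAPLN4 and HAPLN2 in the link protein pool did not overlap between groups. HAPLN4 held 84.6, 82.2 and 84.6% of the summed link protein FPKM in VPA 391, 392 and 393, against 86.9, 89.0 and 86.7% in controls. HAPLN2 held 10.7, 13.1 and 11.2% in VPA animals and 8.61, 7.42 and 9.98% in controls. Shares within a role did not overlap for 6 of 44 members. Shares of this kind were not computed over all genes. By CPM, groups did not overlap in 21.2% of all tested genes, so a separation of 3 from 3 animals was not rare. The shares of HAPLN4 and HAPLN2 also partly restate their CPM values given above. These shares sum to a fixed total, so they are not independent of each other, and with 3 against 3 animals an exact permutation test cannot go below p = 0.10. The shares were compared after the values were seen.

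**Figure D3:**
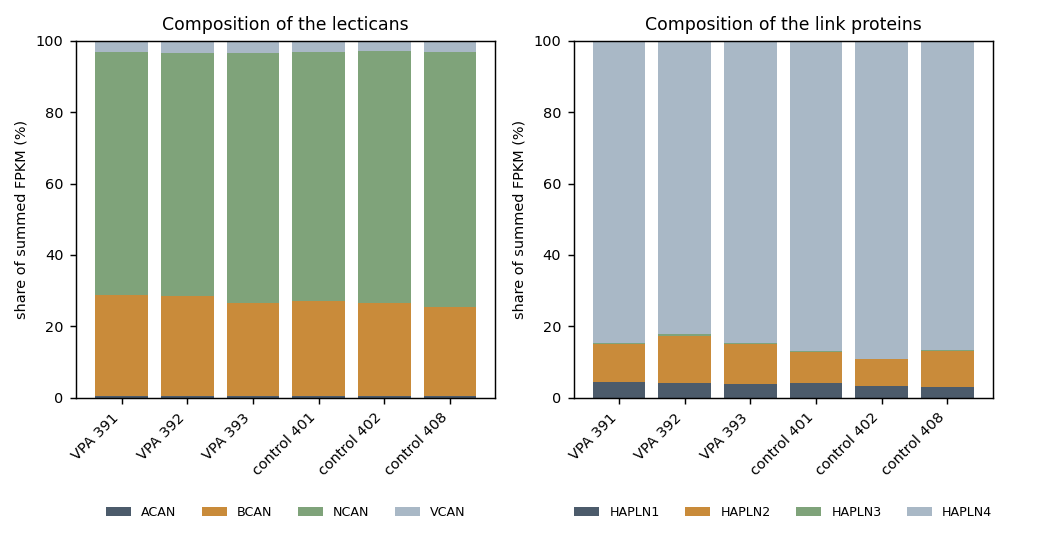
Share of the summed FPKM taken by each lectican (left) and each link protein (right) in each animal, VPA animals left of controls. NCAN fills 68.1 to 71.5% of the lectican bars throughout, while HAPLN4 fills 82.2 to 84.6% of the link protein bars in VPA and 86.7 to 89.0% in controls.

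Markers of the oligodendrocyte lineage, which bear on HAPLN2, VCAN, ADAMTS4 and TNR, stood higher in VPA animals. Levels of TNR itself, given below, lay inside the control range in all VPA animals. All 14 markers of oligodendrocytes were measured and none was at 0. Their summed level was 18143 to 20462 CPM in VPA and 13813 to 18496 CPM in controls, and 13 of 14 had positive fold changes (median 0.36). At an unadjusted p under 0.05, 10 were higher (71.4%, where 8.69% of all genes were). Control 401 had the highest sum among controls, above that of VPA 393. The 10 markers of oligodendrocyte precursors summed to 1027 to 1206 CPM in VPA and 836 to 991 CPM in controls, with 8 positive fold changes, and none was at 0. The neuronal markers, which bear on HAPLN4, had negative fold changes in 7 of 8, with a median of -0.14. At an unadjusted p under 0.05, 5 were lower (62.5%, where 7.47% of all genes were). None was at 0, and their sums, given above, did not overlap between groups. In bulk tissue, a difference in the number of cells of a type and one in RNA per cell cannot be told apart, and the part of these cells in the matrix values was not tested.

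For nets around parvalbumin interneurons, a list of markers of those and related interneurons gave a reference. The list includes SST, the somatostatin gene, so its sum is not a level of parvalbumin cells alone. The 8 markers of parvalbumin and related interneurons had a median log2 fold change of 0.01, 5 of them positive, and summed to 558 to 599 CPM in VPA and 535 to 570 CPM in controls. PVALB averaged 46.0 ± 2.12 CPM in VPA and 48.4 ± 4.51 CPM in controls (-0.09 ± 0.084, adjusted p = 0.67).

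Tenascins are large glycoproteins of the matrix with several arms joined at one end. TNC, which encodes tenascin-C of astrocytes and growing tissue, had 46.5, 52.3 and 55.6 CPM in VPA and 41.1, 49.3 and 30.3 CPM in control animals. Control 402 lay among the VPA animals, and control 408 was the lowest library (0.34 ± 0.15, adjusted p = 0.28; 0.18 without control 408 and 0.51 without control 402). TNR, the gene of tenascin-R, which oligodendrocytes and some neurons make and which cross-links lecticans in nets, had 209, 210 and 209 CPM in VPA, against 179, 171 and 232 CPM in controls. The VPA animals were almost equal and lay inside the control range (0.10 ± 0.097, adjusted p = 0.67). TNC held 37.4 to 41.6% of the summed tenascin FPKM in VPA and 25.9 to 43.7% in control animals.

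Hyaluronan genes were expressed at low levels. HAS3, a hyaluronan synthase gene, averaged 3.70 ± 0.838 CPM in VPA and 4.34 ± 0.735 CPM in controls, on 48 to 82 reads per library (-0.24 ± 0.23, adjusted p = 0.66). CD44, the main cell surface hyaluronan receptor, averaged 4.31 ± 0.581 and 3.41 ± 1.29 CPM in VPA and control animals (0.32 ± 0.27, adjusted p = 0.60). Both intervals, -0.75 to 0.27 and -0.27 to 0.91, span no change as well as sizeable ones.

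Among matrix proteases, MMP2 had the lowest p. MMP2, which encodes gelatinase A, a protease of vessel walls and astrocytes, had 38.0, 32.9 and 35.8 CPM in VPA 391, 392 and 393, against 31.2, 23.8 and 25.3 CPM in controls. All VPA animals lay above all controls, a 1.32-fold difference (log2 fold change 0.40 ± 0.11, unadjusted p = 0.0036, adjusted p = 0.11). DESeq2 gave an adjusted p of 0.036, and over all 17 alternatives it ran from 0.036 to 0.30. ADAMTS4, a lectican-cleaving aggrecanase that oligodendrocytes express, had 35.9, 40.5 and 28.3 CPM in VPA and 29.6, 24.7 and 29.5 CPM in control animals. VPA 393 lay within the control range (0.31 ± 0.13, adjusted p = 0.28; 0.44 without VPA 393 and 0.19 without VPA 392).

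The other tested proteases overlapped between groups. MMP14, the membrane-bound activator of MMP2, averaged 33.2 ± 3.26 CPM in VPA and 33.3 ± 3.95 CPM in controls (95% interval -0.25 to 0.22). ADAMTS1 averaged 5.43 ± 0.979 and 6.13 ± 2.17 CPM and ADAMTS5 2.64 ± 0.654 and 2.34 ± 0.545 CPM in VPA and control animals, with adjusted p of 0.77 and 0.82. MMP9, gelatinase B, was not tested because of its low counts: it had 1, 1 and 0 reads in VPA and 3, 4 and 2 reads in control libraries. These few reads did not overlap between groups.

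Inhibitors of these proteases overlapped between groups. TIMP2, which both inhibits MMP2 and takes part in its activation, averaged 567 ± 16.0 CPM in VPA and 577 ± 13.9 CPM in controls, and its 95% interval of -0.14 to 0.07 is among the narrowest of the members. TIMP3, the matrix-bound inhibitor, averaged 215 ± 15.0 and 200 ± 5.88 CPM (0.10 ± 0.060, adjusted p = 0.47). TIMP1 had 10.3 to 10.9 CPM in VPA and 9.01 to 14.4 CPM in controls, and TIMP4 7.23 to 8.29 and 5.10 to 9.78 CPM. In both, the controls spread around the VPA animals.

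SPARC and fibronectin did not separate the groups. SPARC averaged 1282 ± 25.4 CPM in VPA and 1270 ± 43.2 CPM in controls, with a 95% interval of -0.11 to 0.11 on the log2 scale. FN1, the fibronectin gene, had 173, 162 and 161 CPM in VPA and 145, 215 and 138 CPM in control animals, so that control 402 was far above the other 5 libraries. The small leucine-rich proteoglycan genes DCN (decorin), LUM (lumican) and BGN (biglycan), which regulate collagen fibrils, had log2 fold changes of -0.15, -0.10 and -0.01, and all 3 groups of values overlapped (adjusted p = 0.64, 0.82 and 0.95).

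Fibrillar collagens, made chiefly by fibroblasts of the meninges and vessels, also overlapped between groups. COL1A1 averaged 70.4 ± 8.74 CPM in VPA and 69.8 ± 17.5 CPM in controls, and COL1A2, which encodes the other chain of collagen I, 112 ± 8.28 and 98.6 ± 16.0 CPM. COL3A1 averaged 58.1 ± 2.93 and 53.1 ± 7.16 CPM, COL5A2 16.7 ± 0.783 and 17.6 ± 2.64 CPM, and COL11A1 21.3 ± 1.35 and 19.5 ± 2.84 CPM in VPA and control animals. Their log2 fold changes lay between -0.09 and 0.17, with 0 of 5 at an unadjusted p under 0.05.

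COL9A1 had the largest fold change of the tested members. It encodes a chain of collagen IX, which in cartilage coats collagen II fibrils. COL9A1 had 11.4, 11.1 and 5.45 CPM in VPA 391, 392 and 393, against 4.11, 4.98 and 2.96 CPM in controls. VPA 391 and 392 were more than 2-fold above every control, whereas VPA 393 lay less than 1 CPM above control 402. On 98 to 190 reads per VPA library and 52 to 84 per control library, the difference was 2.29-fold (log2 fold change 1.20 ± 0.29, unadjusted p = 0.0017, adjusted p = 0.090). DESeq2 gave an adjusted p of 0.0028, within a range of 0.0028 to 0.26 over 17 alternatives. Leaving out 1 library at a time moved the log2 fold change between 1.01 and 1.48, and it was 0.71 in limma on log2(FPKM + 1).

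Among the members of the basement membrane, fold changes were positive in 2 of 2 collagen IV genes, in 4 of 5 laminin genes and in all 4 genes of nidogens and heparan sulfate proteoglycans, the highest being 1.21-fold, and none passed after adjustment. HSPG2, which encodes perlecan, the heparan sulfate proteoglycan of vascular basement membranes, had 59.7, 65.2 and 61.7 CPM in VPA, against 50.8, 51.2 and 51.4 CPM in controls. The controls were nearly identical and all VPA animals stood above them (1.21-fold, log2 fold change 0.27 ± 0.062, unadjusted p = 0.0013, adjusted p = 0.079). DESeq2 gave an adjusted p of 0.040, the lowest of 17 alternatives that reached 0.26. NID1, the gene of nidogen-1, which ties laminin to collagen IV, had 34.3, 33.4 and 32.0 CPM in VPA and 30.3, 29.7 and 23.6 CPM in control animals. The groups did not overlap, and control 408 was the lowest library (0.24 ± 0.10, adjusted p = 0.27; 0.14 without control 408). NID2, nidogen-2, had 18.4, 18.7 and 15.9 CPM in VPA and 14.6, 15.9 and 15.5 CPM in controls. VPA 393 and control 402 were equal to 3 digits, with VPA 393 fractionally above (0.19 ± 0.10, adjusted p = 0.40). AGRN, the agrin gene, averaged 77.1 ± 2.48 and 74.8 ± 4.38 CPM in VPA and control animals (0.03 ± 0.060, adjusted p = 0.85).

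The collagen IV and laminin genes among the members all overlapped between groups. COL4A2 had 51.7, 62.3 and 57.5 CPM in VPA, against 54.1, 46.0 and 43.3 CPM in controls. Control 401 lay among the VPA animals (0.25 ± 0.095, adjusted p = 0.24; 0.18 without VPA 392). COL4A1, whose product joins that of COL4A2 in one trimer, averaged 53.2 ± 10.3 and 45.2 ± 7.56 CPM in VPA and control animals (0.22 ± 0.14, adjusted p = 0.48). LAMB2, the laminin beta-2 gene of mature vessels, had 58.1, 63.6 and 61.2 CPM in VPA and 51.3, 58.5 and 45.2 CPM in control animals. Control 402 reached into the VPA range (0.23 ± 0.091, adjusted p = 0.26; 0.14 without control 408 and 0.32 without control 402). LAMB1 had the opposite sign, with 83.5 ± 10.8 CPM in VPA and 92.3 ± 7.36 CPM in controls (-0.16 ± 0.094, adjusted p = 0.45). LAMA2, LAMA5 and LAMC1 had log2 fold changes of 0.02, 0.07 and 0.15, none at an unadjusted p under 0.05.

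**Figure D4:**
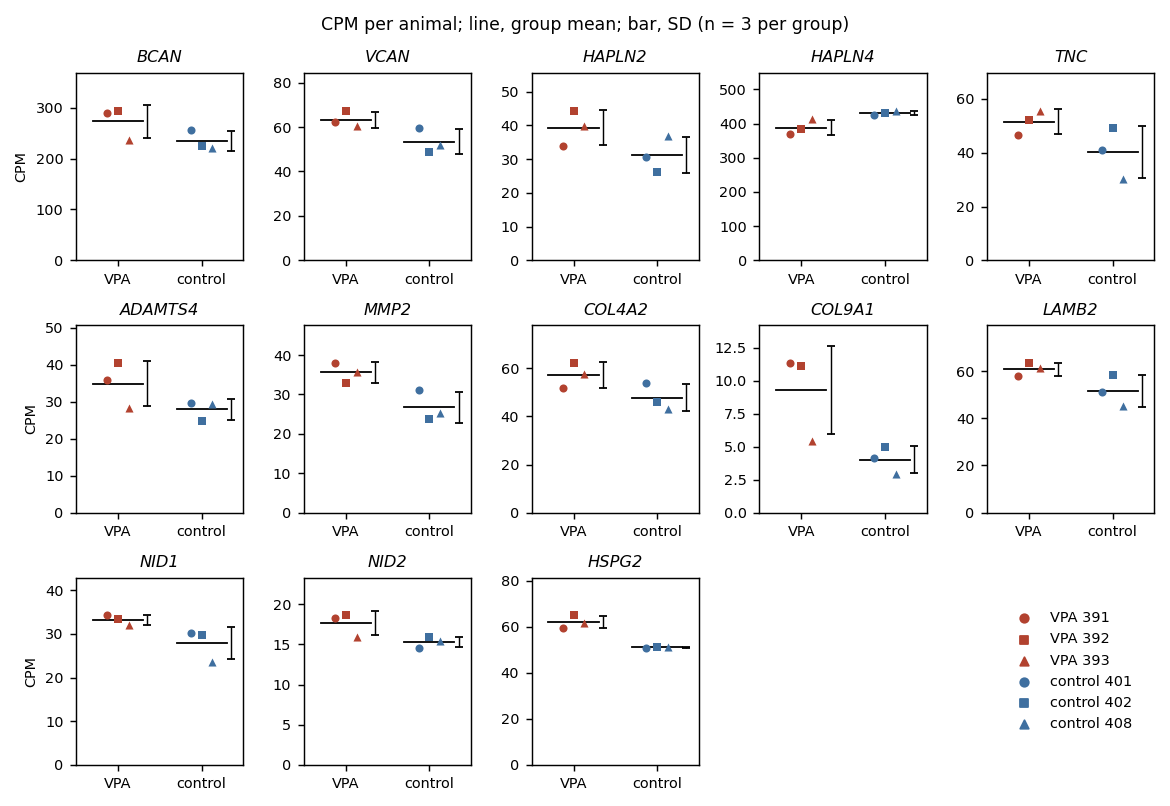
CPM per animal of the 13 tested members with an unadjusted p under 0.05 or with groups that do not overlap; lines are group means and bars SD (n = 3 per group), each axis starting at 0. In COL9A1 the VPA animals sit at 11.4, 11.1 and 5.45 CPM above controls at 2.96 to 4.98 CPM, and in HAPLN4 the VPA animals sit at 368 to 412 CPM below controls at 424 to 438 CPM.

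Markers of vessel cells bear on these basement membrane genes. The 10 endothelial markers summed to 505 to 606 CPM in VPA and 518 to 556 CPM in controls, with a median log2 fold change of 0.01. The 13 markers of mural cells and fibroblasts summed to 374 to 476 CPM in VPA and 351 to 389 CPM in controls, with 11 positive fold changes and a median of 0.24. VPA 392 was the highest library in both sums. Astrocyte markers, which bear on BCAN, NCAN and TNC, summed to 9975 to 11435 CPM in VPA and 9450 to 10282 CPM in controls, with 8 of 10 positive and a median of 0.19. Of these 10, 6 were higher at an unadjusted p under 0.05 (60.0%, where 8.69% of all genes were). No marker of these 3 lists was at 0, and their part in the matrix values was not tested.

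Animals differed within groups. Relative to the mean of the controls, the median of the tested members stood at 0.12, 0.16 and 0.02 on the log2 scale in VPA 391, 392 and 393, and at 0.03, 0.03 and -0.07 in controls 401, 402 and 408. VPA 393 thus lay among the controls in this median. Without control 408 the median log2 fold change over the members was 0.05. VPA 392 was the highest library for 15 of 43 members, and control 408 the lowest for 20 and control 402 for 11. These counts were not made over all genes, so whether they are particular to the members was not tested. The controls were also the more scattered group. The coefficient of variation had a median of 14.6% in controls and 7.39% in VPA over the members, and of 7.65% and 7.22% over all tested genes. Controls varied more than VPA animals in 29 of 43 members (67.4%), where this held for 53.3% of all tested genes. By ratio the widest such contrast was TNR, with a coefficient of variation of 0.206% in VPA and 17.2% in control animals. TNR is the extreme of 43 members. At 3416 to 3760 reads per VPA library, 0.206% is less than the sampling noise of the reads. Its ratio therefore does not measure how much the animals differ.

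**Figure D5:**
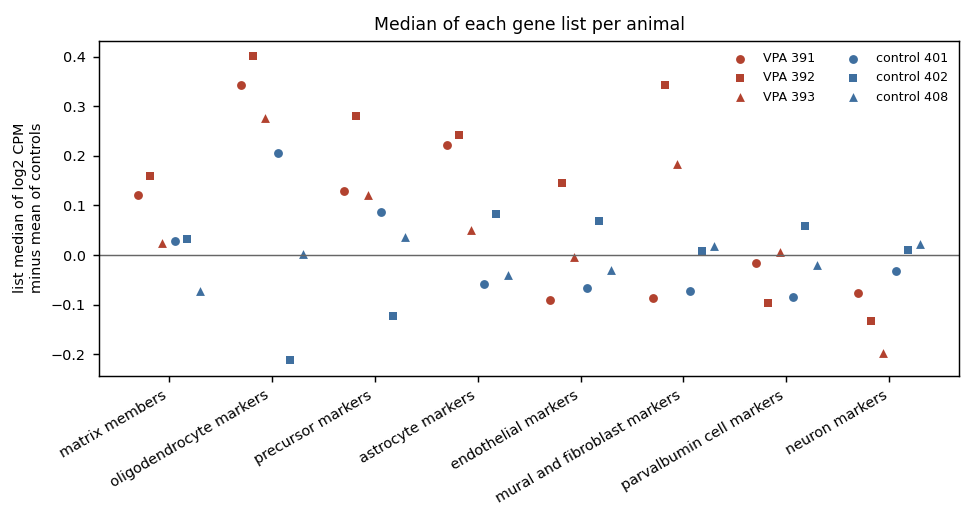
Median over each gene list of log2 CPM minus the mean of the controls, 1 point per animal, for the tested members and 7 marker lists. The list labelled parvalbumin cell markers also holds genes of related interneurons. For the members VPA 391 and 392 lie at 0.12 and 0.16, while VPA 393 lies at 0.02 among the controls; oligodendrocyte markers in control 402 lie at -0.21, the lowest of that list.

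Other genes of the matrix were examined through 9 lists written by role, which held 197 names, 187 of them in the tables and 174 tested. Earlier results of these data were known when these lists, too, were written. None passed after adjustment in edgeR. DESeq2 called 8 of the 174, where it called 3.64% of all genes it adjusted. It did not adjust some of the 174, ITGA11 among them, so the denominators differ. These 8 were PTPRZ1, ITGAV, COL9A3, COL16A1, LAMA4, ADAMTS6, FBLN2 and SMOC1. At an unadjusted p under 0.05, 31 were higher in VPA (17.8%, where 8.69% of all genes were) and 5 were lower (2.87%, where 7.47% were), and 109 of 174 had positive fold changes. The median was 0.10, as for the members.

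Of 19 integrins and other matrix receptors, 16 had positive fold changes (median 0.18) and 6 were higher at an unadjusted p under 0.05 (31.6%, where 8.69% of all genes were). ITGAV, the integrin alpha-V gene, averaged 81.9 ± 4.60 CPM in VPA and 64.2 ± 6.93 CPM in controls (0.34 ± 0.081, adjusted p = 0.089), and ITGA11, a collagen-binding integrin gene, 3.63 ± 0.615 and 1.77 ± 0.239 CPM (1.02 ± 0.24, adjusted p = 0.089). Of 26 tested genes in a list of other metalloproteinases that also holds the inhibitor RECK, 21 were positive (median 0.22), 7 higher (26.9%) and 0 lower at that p, where 8.69% and 7.47% of all genes were. In 11 of these 26 (42.3%) all VPA animals lay above all controls, where 12.1% of all tested genes did so. ADAMTS6 averaged 9.56 ± 1.21 and 5.39 ± 0.826 CPM in VPA and control animals (0.81 ± 0.16, adjusted p = 0.062), and MMP11, stromelysin-3, 9.75 ± 1.60 and 6.42 ± 1.23 CPM (0.59 ± 0.17, adjusted p = 0.14).

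Collagens and laminins beyond the members had medians of 0.20 over 30 tested genes and 0.24 over 7. COL16A1 averaged 24.9 ± 2.34 CPM in VPA and 15.9 ± 3.59 CPM in controls (0.64 ± 0.15, adjusted p = 0.078), and COL23A1, a transmembrane collagen gene, lay the other way with 8.01 ± 1.26 and 11.3 ± 1.98 CPM (-0.51 ± 0.16, adjusted p = 0.16). COL9A3, which encodes a partner chain of COL9A1 and is named after its values were seen, had 18.0, 21.7 and 13.2 CPM in VPA animals and 14.6, 10.5 and 7.56 CPM in controls (0.68 ± 0.23, adjusted p = 0.18). As with COL9A1, VPA 393 was the lowest VPA library, here below control 401. LAMA4, the laminin alpha-4 gene of vessels, had the lowest p of its list with 15.8 ± 1.81 and 10.6 ± 0.667 CPM in VPA and control animals (0.56 ± 0.12, adjusted p = 0.067), followed by LAMA1 (0.38 ± 0.11, adjusted p = 0.13).

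Enzymes that build the sugar chains of lecticans had fold changes of both signs. Of 18 tested genes of chondroitin sulfate synthesis, 5 had positive fold changes (median -0.02). At an unadjusted p under 0.05, 1 was higher and 1 lower (5.56% each, where 8.69% and 7.47% of all genes were). These were CHST14, a dermatan sulfotransferase gene, with 4.20 ± 0.429 CPM in VPA and 3.01 ± 0.249 CPM in controls, and CSGALNACT1, which starts chondroitin chains, with 22.3 ± 0.339 and 25.8 ± 2.58 CPM (adjusted p = 0.27 and 0.28). In 9 tested genes of hyaluronan turnover the median was -0.16. The hyaluronan-degrading genes CEMIP, also a fibroblast marker here, and HYAL2 had the lowest p there, with log2 fold changes of -0.29 and -0.30 (adjusted p = 0.32 and 0.33).

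The median over 21 other proteoglycan core genes was 0.09, over 16 genes of collagen processing 0.04 and over 28 other matrix glycoprotein genes 0.03, against 0.0018 over all genes. PTPRZ1, whose secreted form is the chondroitin sulfate proteoglycan phosphacan, averaged 414 ± 26.9 CPM in VPA and 341 ± 19.8 CPM in controls (0.27 ± 0.062, adjusted p = 0.078). PTPRZ1 is also among the precursor markers. GPC3, glypican-3, stood at -0.44 ± 0.18 (adjusted p = 0.26). The procollagen C-proteinase gene BMP1 and the lysyl hydroxylase gene PLOD2 stood at 0.36 and 0.27 (adjusted p = 0.20 and 0.21). SMOC1, a SPARC-related gene, averaged 68.8 ± 5.16 and 82.4 ± 2.70 CPM in VPA and control animals (-0.27 ± 0.065, adjusted p = 0.088), and FBLN2, the fibulin-2 gene, 40.3 ± 5.17 and 30.3 ± 1.56 CPM (0.40 ± 0.097, adjusted p = 0.093).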

How the data were processed

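RNA of prefrontal cortex from 3 VPA and 3 control pigs was sequenced. The labels' protocols name TRIzol for extraction and a VAHTS Universal V6 kit for libraries. The sources used here give no strandedness, aligner, counter, build or annotation, so no coordinates are printed, and overlapping or near-identical genes may share reads. Each library came with the authors' raw counts and their FPKM, as the deposited columns are headed. All 97071 nonzero FPKM values equalled the count over the file total and a gene length common to the libraries (relative tolerance 0.001). Of the rows, 24 had date-like names and are not named here.

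CPM was computed from the file totals, and FPKM served for levels between genes. Counts were tested in R 4.3.3 with edgeR 4.0.16 (filterByExpr, TMM factors 0.993 to 1.01, glmQLFit, glmQLFTest, no covariate), with Benjamini-Hochberg adjustment over 14373 genes and a threshold of 0.05; 2828 genes were not tested. Standard errors and 95% intervals were derived from the F statistic. The functions were tested on simulated data. No 2 libraries agreed within sampling noise (chi-square per degree of freedom of 5.74 to 12.8 over 15 pairs). Alternatives were other scaling and filters, DESeq2 1.42.0, limma 3.58.1, detection of EIF1AY as a covariate, and each library left out.

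The members and all lists were chosen with earlier results of these data known. Values per library are given for members with an unadjusted p under 0.05 or with groups that do not overlap, and of each list of other matrix genes the 2 with the lowest p are named. MMP9 is given by its counts only.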

Additional observations from a re-analysis of the deposited data

How the results depend on the processing

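No paired analysis was possible because the sources used here name no litter or other link between VPA and control animals. Over 17 alternatives for each of 13 named members, all 221 log2 fold changes had the sign reported, and 3 passed the threshold where the reported value did not, MMP2, COL9A1 and HSPG2 in DESeq2. The 13 were picked by their p or their groups without overlap in these same libraries, which the alternatives refit. Agreement in sign was therefore likely from the start and gives no independent support. The count of members called, 0 of 43, was 3 in DESeq2 and 2 at an adjusted p under 0.1, and 0 in the other alternatives. The count of genes called, 52 of 14373, was 444 in DESeq2, 141 with no filter, 344 at an adjusted p under 0.1, 30 in limma-voom, 2 in limma on log2(FPKM + 0.1) and on log2(FPKM + 1), and 1 on log2(FPKM + 1) with no filter, where 7 members had an unadjusted p under 0.05 in place of 12 (16.3%, where 13.7% of all genes did). With 1 library left out, the count of genes called ran from 0 to 66, and that of members with an unadjusted p under 0.05 from 4 to 12 (9.30 to 27.9%, where 11.9 to 17.2% of all genes did). The genes called were 0 without VPA 391 or VPA 392, 1 without VPA 393, 2 without control 408, 5 without control 402 and 66 without control 401; such fits compare 2 animals with 3. The cause was not tested. With detection of EIF1AY as a covariate, 76 genes and 0 members were called, and 13 members had an unadjusted p under 0.05 (30.2%, where 16.4% of all genes did). On log2(FPKM + 1) the COL9A1 log2 fold change was 0.71, on a scale that understates the change of low genes. Depth limits the low members: at 21 to 48 reads per library the 95% interval of the HAPLN3 fold change ran from -0.06 to 1.32 on the log2 scale.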

Other observations

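Markers of 2 cell types outside the comparisons above were also read. Microglial markers, 10 of 10 measured and none at 0, summed to 516 to 531 CPM in VPA and 426 to 529 CPM in control animals, with 7 positive fold changes and a median of 0.06. Markers of choroid plexus and ependyma, of which 7 were tested, summed to 59.1 to 76.7 CPM in VPA and 50.6 to 65.5 CPM in control animals. Their log2 fold changes, 4 positive and 3 negative, ran from -1.94 to 2.55. At an unadjusted p under 0.05 in edgeR, 2 were higher and 1 was lower (28.6% and 14.3%, where 8.69% and 7.47% of all genes were). TTR, the transthyretin gene, passed the test over all genes in that list, with a log2 fold change of 2.55 ± 0.38 (SE, adjusted p = 0.041 in edgeR's quasi-likelihood test) and an adjusted p of 1e-07 to 0.16 over 17 alternatives, 7 of which stayed under 0.05.

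SST, the somatostatin gene, had the lowest p among the markers of parvalbumin and related interneurons. It averaged 198 ± 14.7 CPM in VPA and 180 ± 6.48 CPM in control animals (SD, n = 3 each), and the groups overlapped (log2 fold change 0.13 ± 0.058, adjusted p = 0.32 in edgeR).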
